A study of Mus musculus with 23 samples.

Results

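The 9 genes described here are maternal-effect genes of the mouse oocyte: Nlrp5, Nlrp2, Nlrp14, Nlrp4f, Nlrp9b, Ooep, Tle6, Padi6 and Npm2. They were matched by gene symbol among the 24716 genes of a table of RNA-seq counts, and all 9 were among the 20189 genes that passed the filter on low counts. The samples were 23 libraries of ovary RNA from wild-type female mice with no other treatment, of 3 inbred strains: C57BL/6J, the common laboratory strain; CAST/EiJ, a strain of wild origin; and NZO/HlLtJ, a strain prone to obesity. Mice of each strain ate a diet with 10% fat or one with 44% fat that was also high in sugar, each with added fiber, from 6 weeks of age until the ovaries were taken at 15 weeks. C57BL/6J on 10% fat had 3 libraries, and the other 5 strain and diet groups had 4 each. The labels do not say whether each library came from a different mouse, so the p-values measure the spread between libraries, and the stage of the estrous cycle is not labelled. Fat and sugar changed together and cannot be told apart.

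NLRP proteins carry a nucleotide-binding NACHT domain and leucine-rich repeats. Some form inflammasomes in immune cells, but others are made mainly in oocytes. NLRP5 (also called MATER), OOEP and TLE6 form the core of the subcortical maternal complex, a protein assembly under the plasma membrane of the growing oocyte that the early embryo needs for its cleavage divisions. PADI6, an arginine deiminase relative, is needed for the cytoplasmic lattices of the oocyte, and NPM2, or nucleoplasmin, is a histone chaperone that organizes oocyte and zygote chromatin. These mRNAs are made while the oocyte grows and are stored in it, and oocytes are a small class of cells in an ovary.

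On genome build GRCm38, 4 of the 5 NLRP genes lay on chromosome 7: Nlrp5 (ENSMUSG00000015721) at 23385889 to 23441922 on the plus strand, Nlrp9b (ENSMUSG00000060508) at 19991465 to 20073306 on the plus strand, Nlrp2 (ENSMUSG00000035177) at 5298547 to 5351035 on the minus strand, and Nlrp14 (ENSMUSG00000016626) at 107166990 to 107198102 on the plus strand. Nlrp4f (ENSMUSG00000032999) lay on chromosome 13 at 65177111 to 65205716 and Ooep (ENSMUSG00000032346) on chromosome 9 at 78376109 to 78378725, both on the minus strand. Tle6 (ENSMUSG00000034758) lay on chromosome 10 at 81590904 to 81601073, Padi6 (ENSMUSG00000040935) on chromosome 4 at 140727355 to 140742643 and Npm2 (ENSMUSG00000047911) on chromosome 14 at 70647302 to 70653084, all on the minus strand. Npm2 overlapped Xpo7 on the same strand.

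The 250 bases just upstream of the transcription start are shown for 3 of the 9 genes, from RefSeq on GRCm38.p6. Capitals mark CANNTG words (the E-box, a motif bound by helix-loop-helix factors such as FIGLA) and TAATTA or TAATTG on either strand (the core of the homeodomain motif bound by NOBOX):
Padi6, chr4:140742644-140742893, - strand: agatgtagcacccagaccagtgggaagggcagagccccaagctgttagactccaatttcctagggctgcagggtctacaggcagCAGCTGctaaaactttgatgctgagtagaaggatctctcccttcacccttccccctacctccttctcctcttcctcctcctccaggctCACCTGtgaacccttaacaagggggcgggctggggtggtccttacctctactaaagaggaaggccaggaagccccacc
Nlrp5, chr7:23385639-23385888, + strand: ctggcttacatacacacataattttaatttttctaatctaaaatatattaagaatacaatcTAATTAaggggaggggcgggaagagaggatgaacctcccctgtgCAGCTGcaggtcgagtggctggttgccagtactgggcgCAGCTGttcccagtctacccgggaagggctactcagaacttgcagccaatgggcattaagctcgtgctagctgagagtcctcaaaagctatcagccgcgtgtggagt
Nlrp2, chr7:5351036-5351285, - strand: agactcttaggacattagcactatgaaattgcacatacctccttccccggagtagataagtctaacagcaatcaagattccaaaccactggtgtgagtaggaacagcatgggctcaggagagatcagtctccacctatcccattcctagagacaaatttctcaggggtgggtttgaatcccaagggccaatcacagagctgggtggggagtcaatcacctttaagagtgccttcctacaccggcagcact
RefSeq promoters were matched for 7 of the 9 genes, and the 3 shown begin where the counted gene begins. Padi6 held 2 CANNTG words, Nlrp5 held 2 with 1 TAATTA, and Nlrp2 held none of either. A second Nlrp5 promoter, 18213 bases further on, held 2 CANNTG words and neither TAATTA nor TAATTG. Nlrp4f held 1 CANNTG word, Ooep and Nlrp9b 1 of each kind, and the Tle6 promoters 2 and 4 CANNTG words. The Nlrp9b promoter lay 16558 bases from the 5' end of the counted gene, and the Tle6 promoters 173 and 3706 bases. Of 32851 RefSeq promoters cut to the same length, 66.2% held CANNTG and 11.3% held TAATTA or TAATTG, so such matches are common and describe the letters only.

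Library totals ranged from 31.94 to 45.85 M estimated counts. Oocyte and granulosa cell RNA was present throughout: all 8 oocyte markers (Zp1, Zp2, Zp3, Gdf9, Bmp15, Oosp1, Figla, Nobox) and all 10 granulosa cell markers were above 0 in every library. Figla was low, at 0.223 to 1.43 CPM. The 8 oocyte markers summed to 85.9 to 418 CPM (counts scaled for sequencing depth by trimmed mean of M values) in a library, against 1220 to 5260 for the granulosa markers. One library, C57BL/6J 10% fat replicate 1, had the lowest oocyte marker sum (85.9 CPM, next lowest 207), and CAST/EiJ 10% fat replicate 2 and C57BL/6J 44% fat replicate 1 held the most oviduct RNA (10 markers summing to 5310 and 282 CPM). Leaving out both oviduct-rich libraries left the numbers of called genes between strains without an oocyte term as they were.

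Per kilobase of merged exon, Padi6 was the most abundant of the 9 mRNAs, at 39.9 ± 11.0 CPM per kb (SD, n = 23 libraries). Nlrp14 followed at 29.0 ± 10.0, then Tle6 at 18.2 ± 3.48, Nlrp5 at 15.2 ± 5.06 and Npm2 at 13.9 ± 3.83 CPM per kb. Ooep (7.46 ± 1.83) and Nlrp4f (7.39 ± 2.52) were level within their spread, and Nlrp9b (4.57 ± 1.75) and Nlrp2 (2.75 ± 0.85) were lowest. Neighbours in this order overlapped between libraries. Every gene was well covered: the lowest value of any of them in any library was 141 estimated counts, for Nlrp2.

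The core of the complex is taken first, with levels in CPM for each library. Nlrp5, without which embryos arrest early, was measured at 18.1, 48.6 and 46.1 CPM in C57BL/6J on 10% fat and at 55.9, 54.8, 42.7 and 50.8 CPM on 44% fat. In CAST/EiJ it stood at 88.8, 73.0, 106 and 112 CPM on 10% fat and at 59.2, 107, 64.1 and 85.0 CPM on 44% fat. In NZO/HlLtJ it stood at 78.9, 104, 67.0 and 94.5 CPM on 10% fat and at 92.1, 76.7, 97.1 and 72.4 CPM on 44% fat. All 7 C57BL/6J libraries were below all 16 libraries of the other strains, and the diets overlapped in every strain.

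Ooep, a KH-domain protein that binds Nlrp5 protein in the core, had levels that crossed between strains. It was at 7.84, 20.1 and 13.9 CPM in C57BL/6J on 10% fat and at 17.6, 16.0, 14.4 and 16.0 CPM on 44% fat. CAST/EiJ libraries gave 15.8, 11.5, 17.5 and 19.5 CPM on 10% fat and 10.9, 15.8, 10.7 and 14.7 CPM on 44% fat. NZO/HlLtJ libraries gave 16.6, 19.5, 13.6 and 21.3 CPM on 10% fat and 19.9, 13.6, 25.2 and 14.8 CPM on 44% fat. Every pair of strains overlapped.

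Tle6, the third core member and a co-repressor relative of the Groucho family, varied least relative to its mean over the 23 libraries. Within CAST/EiJ it did not, with an SD of 24.2% of the mean on 10% fat and 26.3% on 44% fat. Its group means ran from 45.1 ± 7.24 CPM (C57BL/6J, 10% fat, n = 3) to 61.1 ± 16.1 CPM (CAST/EiJ, 44% fat, n = 4), and the strains overlapped. Padi6 was at 29.3, 90.9 and 73.5 CPM in C57BL/6J on 10% fat and at 85.9, 85.1, 66.6 and 81.9 CPM on 44% fat. CAST/EiJ gave 114, 94.1, 138 and 144 CPM on 10% fat and 80.9, 122, 85.3 and 117 CPM on 44% fat, and the NZO/HlLtJ libraries ran from 85.2 to 142 CPM with overlapping diets. The C57BL/6J libraries were the lowest for Padi6 as a group, but their highest, at 90.9 CPM, lay above the lowest of each other strain.

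Among the other NLRP genes, Nlrp14, which is also made in male germ cells, was highest in CAST/EiJ. It was at 26.1, 83.6 and 72.4 CPM in C57BL/6J on 10% fat and at 71.8, 84.4, 60.7 and 80.9 CPM on 44% fat. CAST/EiJ gave 138, 117, 162 and 185 CPM on 10% fat and 96.9, 146, 101 and 131 CPM on 44% fat, and NZO/HlLtJ gave 89.0, 124, 73.9 and 113 CPM on 10% fat and 109, 101, 117 and 77.2 CPM on 44% fat. CAST/EiJ lay wholly above C57BL/6J, and NZO/HlLtJ overlapped both.

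Nlrp9b, which outside the oocyte is known as a sensor of viral RNA in gut epithelium, was at 5.75, 12.6 and 12.7 CPM in C57BL/6J on 10% fat and at 12.9, 14.9, 11.5 and 15.6 CPM on 44% fat. CAST/EiJ gave 24.9, 20, 27.7 and 33.4 CPM on 10% fat and 17.3, 27.3, 16.8 and 22.3 CPM on 44% fat. NZO/HlLtJ gave 11.4, 17.4, 10.7 and 17.1 CPM on 10% fat and 16.6, 14.4, 18 and 10.3 CPM on 44% fat. NZO/HlLtJ was thus near C57BL/6J for this gene, and only its 3 highest libraries reached above the lowest CAST/EiJ library.

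Nlrp4f, which has been found bound to the complex, ranged from 7.86 to 22.8 CPM in C57BL/6J (median 20.8, n = 7). It ranged from 20.8 to 41.8 CPM in CAST/EiJ and from 23.7 to 45.6 CPM in NZO/HlLtJ (n = 8 each), so NZO/HlLtJ lay wholly above C57BL/6J. Nlrp2, a maternal-effect member of the same complex, ranged from 3.5 to 8.27 CPM in C57BL/6J, from 8.95 to 15.6 CPM in CAST/EiJ and from 6.77 to 13.8 CPM in NZO/HlLtJ. Npm2 ranged from 4.44 to 13.5, from 10.7 to 19.8 and from 12.4 to 21.3 CPM in the same order, with overlap between all strains.

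**Figure D1:**
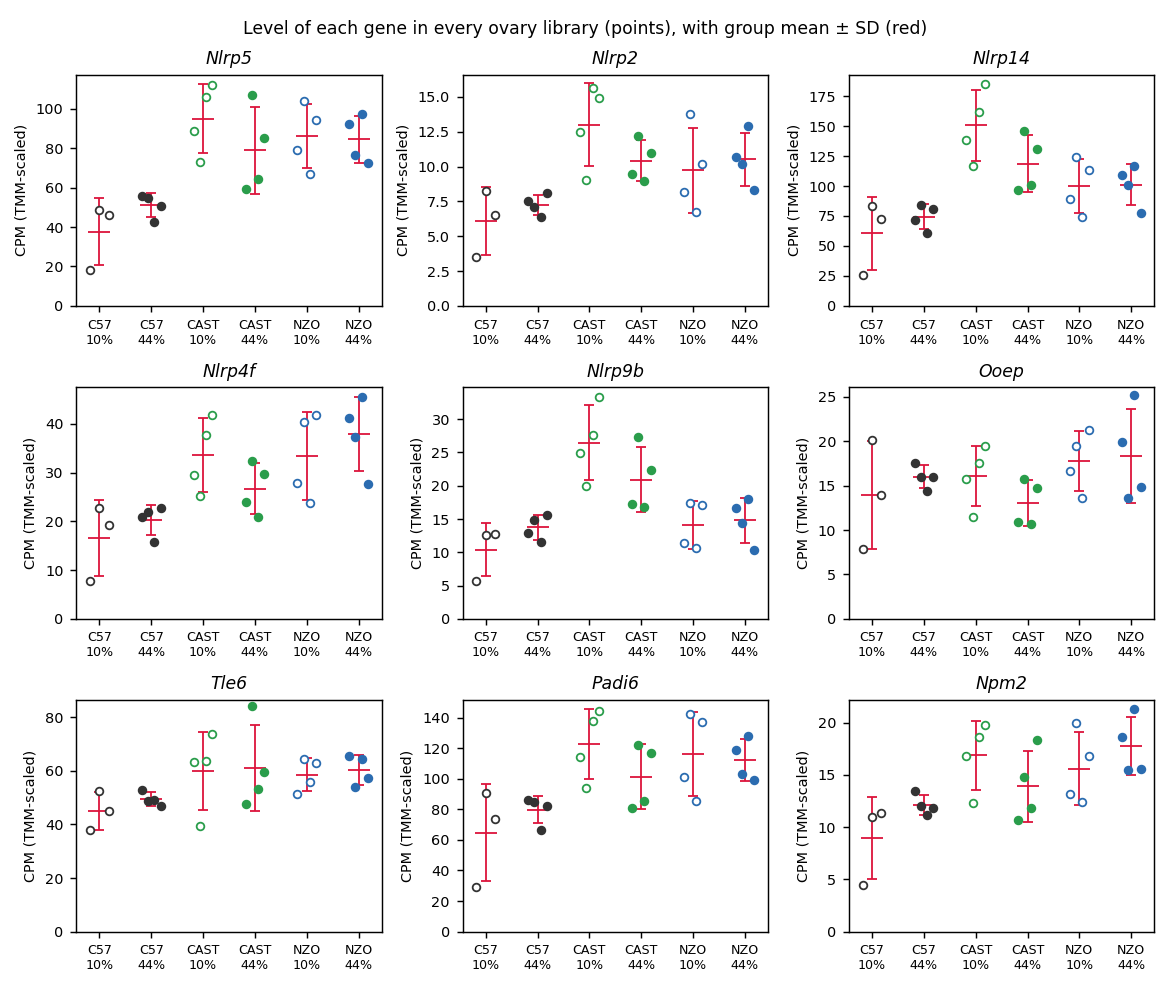
Level of each of the 9 genes in every library (points; open, 10% fat; filled, 44% fat), in CPM on linear axes from 0, with group mean ± SD in red. One C57BL/6J 10% fat library is the lowest of all 23 for each of the 9 genes; for Nlrp5 the 7 C57BL/6J points (18.1 to 55.9 CPM) lie below all others.

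Whether diet moved these genes was asked within each strain and over all strains. None of the 9 passed the test (edgeR's quasi-likelihood test, Benjamini-Hochberg adjusted p under 0.05 over the 20189 genes) in any strain, averaged over strains, or in the difference of the diet response between strains. Diet called few genes of any kind: 0% of all genes in C57BL/6J, 0.624% in CAST/EiJ, 0% in NZO/HlLtJ and 0% averaged over strains, so 0 of 9 is no different from the background. At an unadjusted p under 0.05 the counts over all genes were 1783, 2721, 710 and 1190 in that order, and 0 of the 9 genes were among them in each. DESeq2 called 0.377%, 3.32%, 0.02% and 0.0988% of the genes to which it gave an adjusted p, again with 0 of the 9. The libraries of both diets overlapped for all 9 genes in each strain, where 8.08% (C57BL/6J), 5.88% (CAST/EiJ) and 2.96% (NZO/HlLtJ) of all genes did not overlap.

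In C57BL/6J the 9 log2 fold changes (44% fat over 10% fat) were all positive, from 0.13 for Tle6 to 0.44 for Nlrp5 and Npm2. Their median was 0.29, against 0.01 over all genes tested and 0.31 over 13 other genes of growing oocytes. Nlrp5 had a log2 fold change of 0.44 ± 0.26 (SE; interval -0.08 to 0.96) and an edgeR adjusted p of 0.65. When replicate 1 of C57BL/6J on 10% fat was left out, the 9 values ran from -0.09 to 0.12. That library also had a luteal marker score 1.13 log2 units above the median library and a granulosa score of -0.69, and their part in the result was not tested.

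In CAST/EiJ 8 of the 9 values were negative, with a median of -0.31 against -0.02 over all genes. The median over the 13 other genes of growing oocytes was also -0.31. Nlrp9b had a log2 fold change of -0.34 ± 0.24 (interval -0.81 to 0.13, edgeR adjusted p of 0.594) and Tle6 one of 0.03 ± 0.17. The 8 luteal markers, all above 0 in every library, summed to 5380 to 7540 CPM in CAST/EiJ on 10% fat and to 11100 to 13100 CPM on 44% fat, and the 8 macrophage markers, also above 0 in every library, to 148 to 188 and 262 to 496 CPM. Luteal and macrophage RNA thus differed between these diets without overlap, and their part in the values was not tested. In NZO/HlLtJ the values ran from -0.05 to 0.19 with a median of 0.05.

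The difference of the diet response between CAST/EiJ and C57BL/6J was negative for all 9 genes, with a median of -0.62. The median was -0.04 over all genes tested and -0.63 over 13 other genes of growing oocytes, so the shift was not particular to the set. Without replicate 1 of C57BL/6J on 10% fat the 9 values ran from -0.46 to 0. With a term for oocyte RNA content they ran from -0.18 for Nlrp9b to 0.23 for Tle6. In the fit without that term the difference was -0.75 ± 0.36 for Nlrp9b, at an unadjusted p of 0.0492 and an adjusted p of 0.311 in edgeR's quasi-likelihood test. It was -0.71 ± 0.36 for Nlrp5 (adjusted p of 0.339). The unadjusted p of this test was under 0.05 for 1 of the 9 genes and for 16% of all genes. The test called 0.614% of all genes in this comparison, 0% for NZO/HlLtJ against C57BL/6J and 0.0149% for NZO/HlLtJ against CAST/EiJ. Within libraries whose identifiers begin with the same 2 digits, a possible batch that no label defines, the C57BL/6J diet median was 1.39 in series 76 (1 library against 1) and -0.12 in series 82 (2 against 2). In CAST/EiJ it was -0.51, 0.12 and -0.36 in series 76, 82 and 90, so the direction within strains did not hold across series.

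**Figure D2:**
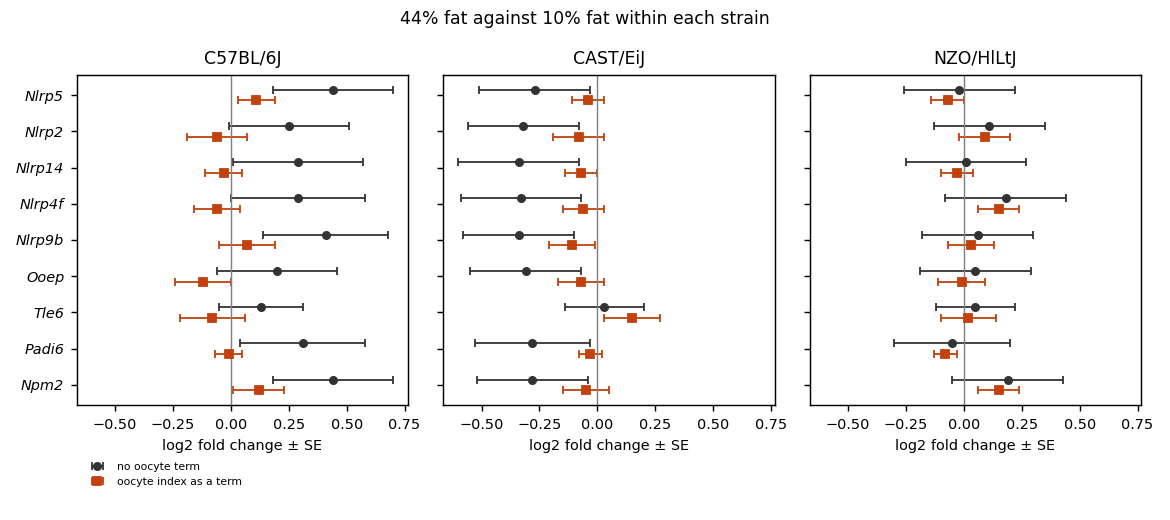
Log2 fold change, 44% fat over 10% fat, ± SE for each gene in each strain, without (black circles) and with (red squares) a term for oocyte RNA content. Without the term all C57BL/6J values are positive (0.13 to 0.44) and 8 of 9 CAST/EiJ values negative; with it they lie between -0.12 and 0.15 in every strain, and none passed the test in either fit; with the term 0.51% of all genes were called in CAST/EiJ and 0% in the other strains.

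Levels differed by strain. Averaged over diets, 8 of the 9 genes were higher in CAST/EiJ than in C57BL/6J and none lower, where edgeR's test called 46.8% of all genes (23.2% higher). Nlrp14 was 1.99-fold higher, Nlrp5 1.98-fold, Nlrp9b 1.97-fold and Nlrp2 1.75-fold. Nlrp4f was 1.63-fold higher, Padi6 1.55-fold, Npm2 1.47-fold and Tle6 1.28-fold. The median log2 fold change of the 9 was 0.70 against 0.01 over all genes, and the direction of Nlrp4f, Tle6, Padi6 and Npm2 turned under 1 of the adjustments for oocyte content given further on.

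The log2 fold change of Nlrp5 was 0.98 ± 0.18 with an edgeR adjusted p of 0.000175, and that of Nlrp14 was 0.99 ± 0.19 (0.000314). Tle6 was the weakest call, at 0.36 ± 0.12 with an adjusted p of 0.0216. It was lost in 5 other fits that kept its direction, 3 of which omit a library: replicate 1 of C57BL/6J on 10% fat (edgeR adjusted p of 0.07), replicate 4 of CAST/EiJ on 10% fat (0.0536) or replicate 2 of CAST/EiJ on 44% fat (0.0585). Ooep was the 1 gene of the set that did not pass, at -0.05 ± 0.18 (interval -0.39 to 0.30, adjusted p of 0.855). In 4 of the 9 (Nlrp5, Nlrp2, Nlrp14, Nlrp9b) no CAST/EiJ library overlapped a C57BL/6J library, against 15.9% of all genes.

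Between NZO/HlLtJ and C57BL/6J 6 of the 9 genes were higher in NZO/HlLtJ and none lower, where 23.9% of all genes were called (11.6% higher). Nlrp5 was 1.95-fold and Nlrp4f 1.94-fold higher, and their log2 fold changes were 0.96 ± 0.18 (edgeR adjusted p of 6e-04) and 0.95 ± 0.20 (0.00139). Npm2 was 1.60-fold, Padi6 1.59-fold, Nlrp2 1.52-fold and Nlrp14 1.5-fold higher. Nlrp9b (0.28 ± 0.18), Ooep (0.27 ± 0.18) and Tle6 (0.33 ± 0.12, edgeR adjusted p of 0.0557) did not pass. Libraries did not overlap for Nlrp5 and Nlrp4f, 2 of the 9, against 7.79% of all genes.

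The count of 6 fell to 4 without C57BL/6J 10% fat replicate 1, when Nlrp2 (0.47, edgeR adjusted p of 0.0546) and Nlrp14 (0.41, 0.0608) no longer passed. The Nlrp14 call was lost in 11 of 32 other fits that kept its direction, among them that without both oviduct-rich libraries (adjusted p of 0.0503), where Tle6 passed instead (0.35, adjusted p of 0.019). Nlrp5 remained called in all 32, with an adjusted p of at most 0.0263.

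NZO/HlLtJ and CAST/EiJ differed in 1 of the 9 genes, where the test called 48.1% of all genes (24.8% lower in NZO/HlLtJ). Nlrp9b was 1.62-fold lower in NZO/HlLtJ, with a log2 fold change of -0.70 ± 0.17 (interval -1.04 to -0.36) and an edgeR adjusted p of 0.00218. It remained called in all 32 other fits, with an adjusted p of at most 0.00721. Nlrp14 had a log2 fold change of -0.41 ± 0.18 that missed the threshold (edgeR adjusted p of 0.0699) and passed (adjusted p of 0.0128) when replicate 1 of C57BL/6J on 10% fat, a library of neither strain, was omitted from the shared fit. Ooep, at 0.32 ± 0.17, did not pass (adjusted p of 0.129). For no gene of the set did the libraries of these strains separate, against 16.8% of all genes.

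Within each identifier series the 8 genes called between CAST/EiJ and C57BL/6J and the 6 called between NZO/HlLtJ and C57BL/6J kept their direction. The medians over the 9 genes were 1.05, 0.38 and 0.69 for CAST/EiJ against C57BL/6J in series 76, 82 and 90, and 1.09, 0.29 and 0.38 for NZO/HlLtJ against C57BL/6J. C57BL/6J had 2, 4 and 1 libraries in these series, CAST/EiJ 2, 3 and 3, and NZO/HlLtJ 4, 2 and 2. The C57BL/6J libraries of series 76 include the low 10% fat replicate 1, and that of series 90 was on 44% fat. Diets were not balanced within series, so these are descriptions of few libraries. Nlrp9b was lower in NZO/HlLtJ than in CAST/EiJ by a log2 fold change of -0.49, -0.62 and -1.01 in the 3 series. Luteal markers also differed by strain: their sum was 11000 to 16400 CPM in C57BL/6J, 5380 to 13100 in CAST/EiJ and 7330 to 10400 in NZO/HlLtJ, and its part in the strain differences was not tested. Strain cannot be told apart from how well reads of each strain matched the genome used for counting, because strain-specific alignment is not given in the sources used here.

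The 9 mRNAs varied together with other oocyte mRNAs from library to library. Oocyte RNA content was summarised by an oocyte index, the median over 13 other genes of growing oocytes of log2 CPM centred on its median library. Over the 23 libraries the correlation with this index was r = 0.973 for Padi6 (rho = 0.946), 0.957 for Npm2, 0.937 for Nlrp4f and 0.915 for Nlrp5. It was lowest for Nlrp9b, at r = 0.743 (rho = 0.621), and Tle6, at 0.785. In a bulk sample, fewer oocytes and less RNA per oocyte cannot be told apart.

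Without the 2 libraries farthest from the median index (C57BL/6J 10% fat replicate 1 and CAST/EiJ 10% fat replicate 4), r was 0.926 for Padi6, 0.801 for Nlrp5, 0.676 for Nlrp14 and 0.496 for Nlrp9b. Over deviations from the strain and diet group means, r was 0.99 for Padi6, 0.976 for Nlrp14, 0.975 for Nlrp5 and 0.934 for Nlrp9b. These values pool the deviations of all 23 libraries from their group means; over the levels themselves, r in the same 23 libraries was 0.873 for Nlrp14 and 0.743 for Nlrp9b. Tle6 had the shallowest slope within groups, 0.457 log2 units per unit of index, against 0.953 for Padi6 and 0.988 for Nlrp14. All libraries share 1 scaling, so these correlations are given as descriptions only. In C57BL/6J 10% fat replicate 1, the library with the lowest oocyte marker sum, Tle6 was at 37.9 CPM. The others of its group were at 52.3 and 45 CPM. Padi6 was at 29.3 CPM in that library, beside 90.9 and 73.5 CPM. Whether other cells of the ovary hold Tle6 mRNA was not tested.

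**Figure D3:**
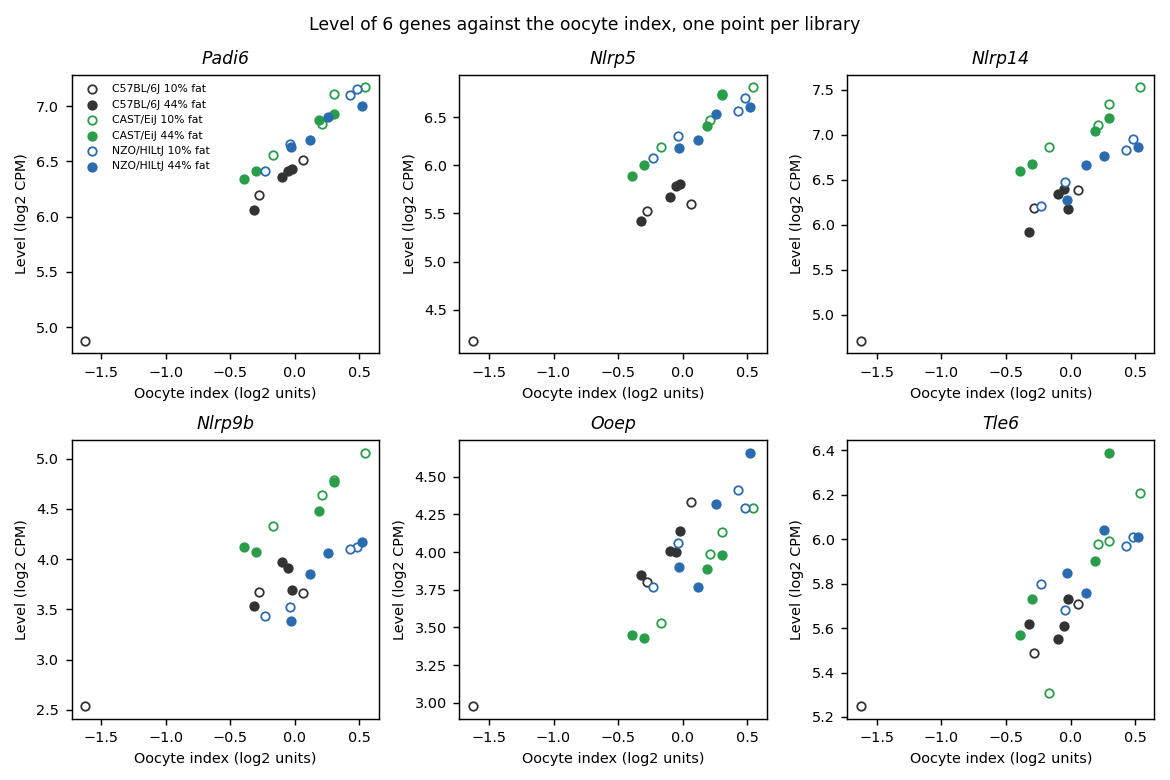
Level (log2 CPM) of 6 genes against the oocyte index (log2 units), one point per library, coloured by strain (open, 10% fat; filled, 44% fat). Padi6 follows the index most closely (r = 0.973 over 23 libraries), while Nlrp14 and Nlrp9b run higher in CAST/EiJ at the same index.

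Across pairs of the 9 genes, r over all libraries ran from 0.427 to 0.974 with a median of 0.805 (36 pairs), and within groups from 0.656 to 0.978 with a median of 0.909. The 8 genes outside the set most like its median level over the 23 libraries were Zp2 (r = 0.987), Gdf9 (0.98), Nobox (0.978), Oas1d (0.976), Mos (0.974), Eif4e1b (0.968), Zp3 (0.966) and Pramef12 (0.963). Genes with clone, predicted-gene or pseudogene names were left out of this ranking. Zp2 and Zp3 encode zona pellucida proteins of the egg coat, Gdf9 a growth factor secreted by oocytes, Nobox a transcription factor of early oocytes and Mos a kinase of meiotic arrest.

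With the oocyte index as a term in the fit, the strain differences from C57BL/6J were smaller for 8 of the 9 genes in the CAST/EiJ comparison, all but Ooep. Against C57BL/6J, CAST/EiJ then had higher Nlrp5, Nlrp14 and Nlrp9b (log2 fold changes of 0.61 ± 0.06, 0.61 ± 0.06 and 0.61 ± 0.09), higher Nlrp2 (0.46 ± 0.09), Nlrp4f (0.31 ± 0.07), Padi6 (0.26 ± 0.04) and Npm2 (0.20 ± 0.08), and lower Ooep (-0.40 ± 0.08). Those 8 calls, 7 higher and 1 lower, compare with 41.5% of all genes called. The edgeR adjusted p was 4.38e-08 for Nlrp5, 6.65e-08 for Nlrp14, 0.000614 for Ooep and 0.0469 for Npm2. The Npm2 call was lost in 10 of 27 other fits that kept its direction, 9 of which omit 1 library; without replicate 2 of C57BL/6J on 10% fat it was 0.13 (adjusted p of 0.307). Tle6 did not pass (0.14 ± 0.10, adjusted p of 0.298), but did without both oviduct-rich libraries (0.27, 0.0236).

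NZO/HlLtJ then exceeded C57BL/6J in 3 genes, where 13.6% of all genes were called: Nlrp5 by 0.50 ± 0.06, Nlrp4f by 0.45 ± 0.08 and Padi6 by 0.20 ± 0.04. Nlrp9b and Ooep, which passed in neither fit, turned from 0.28 and 0.27 to -0.19 and -0.17. Against CAST/EiJ, NZO/HlLtJ had lower Nlrp9b (-0.79 ± 0.07, edgeR adjusted p of 2.79e-08), Nlrp14 (-0.52 ± 0.05, 5.19e-08) and Nlrp2 (-0.30 ± 0.08, 0.00398) and higher Ooep (0.23 ± 0.07, 0.0118). These 4 of 9 stand beside 49.1% of all genes called. Without both oviduct-rich libraries Ooep no longer passed there (0.18, edgeR adjusted p of 0.0557) and Nlrp5 did (-0.14, 0.0371), and in NZO/HlLtJ against C57BL/6J Npm2 passed too (0.27, 0.049). The median size of the difference over the 9 genes was 0.40 in CAST/EiJ against C57BL/6J, where it was 0.31 over all genes, 0.19 in NZO/HlLtJ against C57BL/6J, equal to the 0.19 over all genes, and 0.14 in NZO/HlLtJ against CAST/EiJ, beside 0.31.

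Levels relative to the index (log2 CPM minus the index) did not overlap between CAST/EiJ and C57BL/6J for 6 of the 9 genes (Nlrp5, Nlrp14, Nlrp4f, Nlrp9b and Padi6 higher, Ooep lower), against 8.96% of all genes. They did not overlap between NZO/HlLtJ and C57BL/6J for Nlrp5 and Nlrp4f, against 5.44%, or between NZO/HlLtJ and CAST/EiJ for Nlrp14 and Nlrp9b, against 9.09%. For genes made in other cells this measure adds the spread of the index, so these shares are a rough background. Nlrp2, Tle6 and Npm2 overlapped in each comparison. For Nlrp5 the 7 C57BL/6J libraries lay at 5.55 to 5.83, the CAST/EiJ libraries at 6.22 to 6.44 and the NZO/HlLtJ libraries at 6.08 to 6.34. For Nlrp14 CAST/EiJ stood apart at 6.85 to 7.05, above 6.19 to 6.46 in C57BL/6J and 6.3 to 6.54 in NZO/HlLtJ. So C57BL/6J was the low strain for Nlrp5 and CAST/EiJ the high strain for Nlrp14. For Nlrp9b the ranges were 3.6 to 4.16 in C57BL/6J, 4.3 to 4.53 in CAST/EiJ and 3.41 to 3.8 in NZO/HlLtJ, and for Ooep they were 4.06 to 4.6, 3.69 to 3.84 and 3.65 to 4.13, with CAST/EiJ wholly below C57BL/6J.

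These values depend on which oocyte genes form the index. The 13 index genes themselves differed by strain with the term in place: between CAST/EiJ and C57BL/6J 5 were higher and 6 lower, from -1.14 for Rfpl4 to 0.32 for Mos among those that passed. With an index from 10 genes of early oocytes and germ cells instead, an alternative added after seeing the data, 1 of the 9 genes differed between CAST/EiJ and C57BL/6J, where 32.5% of all genes were called: Ooep, lower by a log2 fold change of -0.75 ± 0.11 (edgeR adjusted p of 3.84e-05). Nlrp5 (0.26, adjusted p of 0.103), Nlrp14 (0.25, 0.161) and Nlrp9b (0.30, 0.151) no longer passed, and Nlrp4f, Tle6, Padi6 and Npm2 turned to between -0.06 and -0.10.

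Some results were called with either index. With the early index Nlrp9b stayed lower in NZO/HlLtJ than in CAST/EiJ (-0.57, edgeR adjusted p of 0.000123), as did Nlrp14 (-0.27, 0.0154), and Ooep stayed higher (0.45, 8.54e-05). Nlrp4f was also higher in NZO/HlLtJ there (0.39, adjusted p of 0.00138), and these 4 calls stand beside 49.8% of all genes. Nlrp5 was the 1 gene called between NZO/HlLtJ and C57BL/6J (0.38, adjusted p of 0.0263), beside 11.4%. Ooep was lower in CAST/EiJ than in C57BL/6J in every fit that held either index, with an adjusted p of at most 0.0129, and not in the fit without one.

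**Figure D4:**
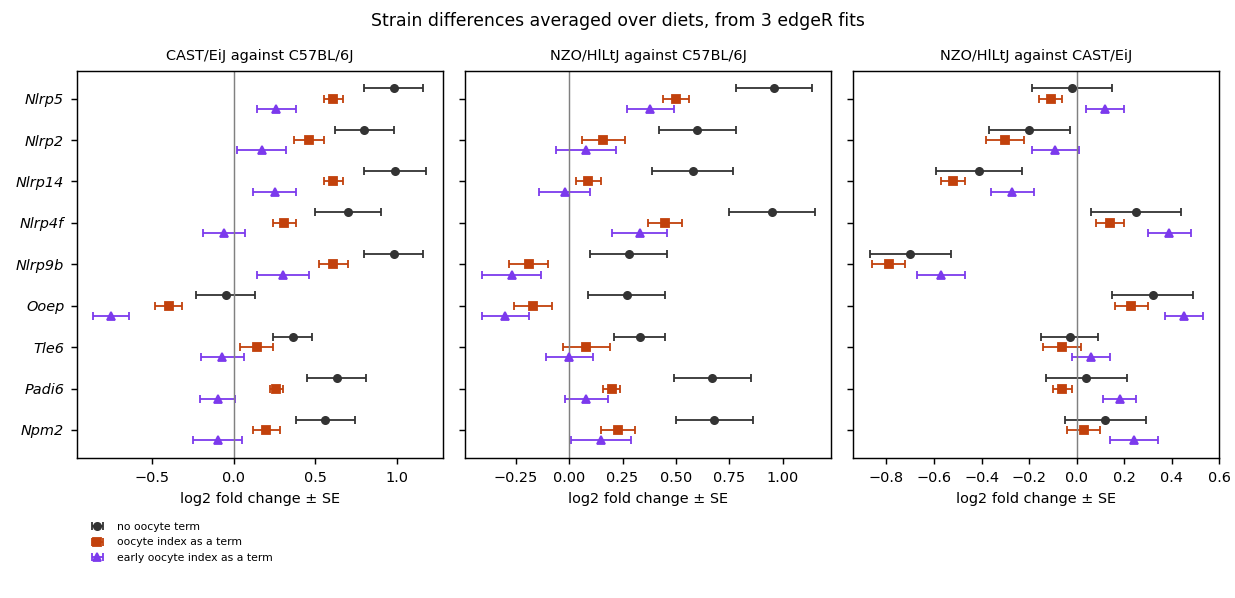
Strain differences averaged over diets, as log2 fold change ± SE for each gene, from edgeR fits with no oocyte term (black circles), the oocyte index (red squares) and the early oocyte index (purple triangles). Ooep lies at -0.05, -0.40 and -0.75 in the CAST/EiJ against C57BL/6J panel, and Nlrp9b at -0.70, -0.79 and -0.57 in the NZO/HlLtJ against CAST/EiJ panel.

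Ratios between genes of the set need no index, and 3 are shown that were chosen after the values were seen and so carry no test. The log2 ratio of Nlrp14 to Ooep was 3.21 ± 0.07 in CAST/EiJ (SD, n = 8; 3.12 to 3.34), 2.14 ± 0.24 in C57BL/6J (n = 7; 1.73 to 2.40) and 2.48 ± 0.21 in NZO/HlLtJ (n = 8; 2.21 to 2.89). CAST/EiJ lay wholly above the others. The ratio of Nlrp5 to Ooep was 2.57 ± 0.10 in CAST/EiJ, 2.25 ± 0.17 in NZO/HlLtJ and 1.55 ± 0.23 in C57BL/6J, whose highest library (1.78) was below the lowest of the other strains (1.94). The ratio of Nlrp9b to Nlrp4f was -1.29 ± 0.09 in NZO/HlLtJ (-1.41 to -1.14), -0.59 ± 0.15 in C57BL/6J (-0.86 to -0.44) and -0.35 ± 0.09 in CAST/EiJ (-0.46 to -0.24), so the NZO/HlLtJ libraries stood apart. Both diets overlapped in every strain and ratio except Nlrp9b to Nlrp4f in NZO/HlLtJ, where all 4 libraries on 44% fat lay narrowly below all 4 on 10% fat. The share of gene ratios that separate in this way was not computed, so no diet effect is read from it. In NZO/HlLtJ identifier series 82 held only 10% fat and series 90 only 44% fat, so diet and series are partly confounded.

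**Figure D5:**
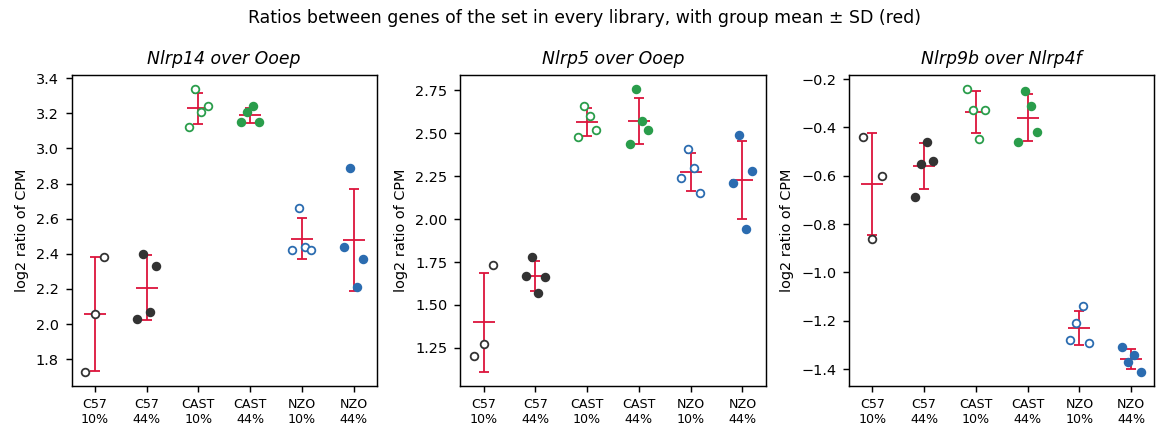
Log2 ratio of CPM between genes of the set in every library (points; open, 10% fat; filled, 44% fat), with group mean ± SD in red. CAST/EiJ is highest for Nlrp14 over Ooep (3.12 to 3.34), C57BL/6J lowest for Nlrp5 over Ooep (1.20 to 1.78) and NZO/HlLtJ lowest for Nlrp9b over Nlrp4f (-1.41 to -1.14).

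Paralogs limit what Nlrp9b and Nlrp5 counts can show. Of the 100-base windows of Nlrp9b transcripts, 1.4% also occur in Nlrp9a or Nlrp9c, and 2.5% of those of Nlrp5 occur in the pseudogene Nlrp5-ps, so part of these estimated counts could have been shared between copies. The estimated count was not whole in 23 of 23 libraries for Nlrp5 and in 7 of 23 for Nlrp9b. It was whole in every library for each other gene of the set. How far reads were divided between copies was not tested. The paralogs did not all move alike. Nlrp9a was higher in NZO/HlLtJ than in CAST/EiJ by 0.99 ± 0.16 (edgeR adjusted p of 4.21e-05), opposite to Nlrp9b.

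Of 10 further genes of the complex and its oocyte NLRP relatives, 9 were tested, and none passed in any diet comparison. Between CAST/EiJ and C57BL/6J, where 46.8% of all genes were called, 2 were higher and none lower: Nlrp4b by 1.23 ± 0.22 (edgeR adjusted p of 0.000121) and Khdc3, whose protein FILIA belongs to the complex, by 0.63 ± 0.17 (0.00531). Between NZO/HlLtJ and C57BL/6J, where 23.9% were called, 6 were higher and none lower, with Nlrp4a at 0.99 ± 0.19, Khdc3 at 0.96 ± 0.18, Nlrp9a at 0.68 ± 0.17 and Nlrp9c at 0.66 ± 0.21. The medians of the list were 0.36 and 0.66, beside 0.01 and 0 over all genes.

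Between NZO/HlLtJ and CAST/EiJ 3 of these 9 were higher and 1 lower, a share near the 48.1% of all genes called. Nlrp4e was higher by 1.63 ± 0.17 (edgeR adjusted p of 1.48e-07), Nlrp9a by 0.99 ± 0.16 and Nlrp4a by 0.63 ± 0.18, and Nlrp4b was lower (-0.67 ± 0.21, adjusted p of 0.011). Nlrp4b thus had the pattern of Nlrp9b, high in CAST/EiJ, with group means of 21.9 ± 5.48 and 16.5 ± 2.51 CPM there (n = 4 each) and 7.17 to 12.6 CPM elsewhere. With the oocyte index as a term the list had 2 higher and 1 lower, 3 higher and none lower, and 4 higher and 1 lower in the 3 strain comparisons, in which 41.5%, 13.6% and 49.1% of all genes were called.

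Other oocyte lists were counted against the same background of 46.8% of all genes called between CAST/EiJ and C57BL/6J (23.2% higher) and 23.9% between NZO/HlLtJ and C57BL/6J (11.6% higher). Of the 13 growing-oocyte genes of the index, 5 were higher and 1 lower in CAST/EiJ than in C57BL/6J, and 5 were higher in NZO/HlLtJ. Of 10 genes of early oocytes and germ cells, 6 were higher in CAST/EiJ and 4 in NZO/HlLtJ, and of 10 genes of mRNA storage and clearance in the oocyte 6 and 2 were higher, with none lower in these comparisons. The share of growing-oocyte genes called in CAST/EiJ and of storage genes called in NZO/HlLtJ was thus near the background or below it when both directions are counted. For higher calls alone, 5 of 13 and 2 of 10 stand above the 23.2% and 11.6% of all genes. The median log2 fold changes against C57BL/6J were 0.39 and 0.48 for the growing-oocyte genes, 0.72 and 0.57 for the early genes and 0.48 and 0.35 for the storage genes, beside 0.70 and 0.60 for the 9 genes.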

How the data were processed

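Ovary RNA of 23 libraries was sequenced from polyA-selected libraries (100 bp paired-end reads), per the labels' protocols. The authors deposited estimated counts (expected counts, not whole in 27.4% of values) per gene, and variance-stabilised log2 values, which served as an alternative with limma 3.58.1; the submitters' processing notes name GRCm38 and DESeq2 without versions. The aligner, the counter and the strand setting are not given in the sources used here. Counts were rounded, filtered (filterByExpr, minimum count 10, minimum total 15), scaled by trimmed mean of M values and fitted with edgeR 4.0.16 (robust quasi-likelihood) in R 4.3.3 with 1 mean for each of 6 groups. P-values were adjusted by Benjamini-Hochberg over 20189 genes in each of 10 comparisons, and intervals are 95%. SE was the log2 fold change over the square root of F, and log2 CPM used a prior count of 2. DESeq2 1.42.0 was an alternative. The fit was tested on simulated counts. Within-group pairs of libraries differed by 12.4 to 219.7 in chi-square per degree of freedom, so none was a copy. All 9 genes are reported. From other lists up to 4 genes that passed are named, by mean CPM. The members and lists were chosen with earlier results of these data known. Some listed genes (Nlrp4d, H1f8, Tle5) were not matched.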

Additional observations from a re-analysis of the deposited data

How the results depend on the processing

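No paired analysis was possible because the labels give no replicate numbers. A fit that held the identifier series called 8, 6 and 1 genes in CAST/EiJ against C57BL/6J, NZO/HlLtJ against C57BL/6J and NZO/HlLtJ against CAST/EiJ. No diet or diet-response comparison called any of the 9 genes in any alternative run. Over 117 values of single genes and 3600 refits, 3506 kept their side of the threshold (158 of them with a change of sign in values that did not pass), 45 fell below it, 41 rose past it and 8 changed sign with a call in at least 1 of the fits; the cause was not tested. With the early oocyte index as a term, the count of genes called was 1 in CAST/EiJ against C57BL/6J (8 without a term and 8 with the oocyte index), 1 in NZO/HlLtJ against C57BL/6J (6 and 3) and 4 in NZO/HlLtJ against CAST/EiJ (1 and 4). With the oocyte index the counts in NZO/HlLtJ against C57BL/6J and against CAST/EiJ were 3 and 4. In NZO/HlLtJ against CAST/EiJ 2 genes were called when only the groups compared were fitted, and 2 without C57BL/6J 10% fat replicate 1. All 8 reversals that involve a called value came with the early oocyte index: in CAST/EiJ against C57BL/6J Nlrp4f (-0.06), Tle6 (-0.07), Padi6 (-0.1) and Npm2 (-0.1), and in NZO/HlLtJ against C57BL/6J Nlrp14 (-0.02); the Nlrp4f, Padi6 and Npm2 values also reverse those from the oocyte index. Leaving out each library in turn gave 7 to 8 genes in CAST/EiJ against C57BL/6J, 4 to 7 in NZO/HlLtJ against C57BL/6J and 1 to 2 in NZO/HlLtJ against CAST/EiJ, and 7 to 9, 3 to 4 and 4 to 6 with the oocyte index. Of the 9 genes, Nlrp2 had the fewest counts (141 to 629 in a library). What limited the precision was not tested. No group of 4 libraries held a value far from the others for any of 45 values checked. C57BL/6J on 10% fat, with 3 libraries, was not part of this check, and its replicate 1 was the lowest library for each of the 9 genes.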

Other observations

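NLRP and related genes of immune cells and gut were tested in the same fit. Of 12 such genes, 5 were higher and 2 lower in CAST/EiJ than in C57BL/6J, 1 higher and 4 lower in NZO/HlLtJ than in C57BL/6J, and 3 higher and 6 lower in NZO/HlLtJ than in CAST/EiJ, where 46.8%, 23.9% and 48.1% of all genes were called; the difference from the oocyte genes was not tested. Between CAST/EiJ and C57BL/6J, Nod1, a sensor of bacterial peptidoglycan, had a log2 fold change of 0.54 ± 0.08 (edgeR adjusted p of 9.03e-06), Nlrx1 one of 0.34 ± 0.12, Nlrc3 one of 1.61 ± 0.09 and Nlrc5, a regulator of MHC class I genes, one of -1.36 ± 0.19. Their medians were 0.05, -0.20 and -0.40 in the 3 comparisons. None passed in a diet comparison.

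Of 15 tested relatives of Padi6, Npm2, Tle6 and Ooep, 5 were higher and 1 lower in CAST/EiJ than in C57BL/6J, 1 was higher and 2 lower in NZO/HlLtJ than in C57BL/6J, and 5 were lower in NZO/HlLtJ than in CAST/EiJ. These shares lie below the 46.8%, 23.9% and 48.1% of all genes called. Tle3, a Groucho co-repressor, was lower in CAST/EiJ than in C57BL/6J (-0.45 ± 0.11, edgeR adjusted p of 0.00161), while Tle4 (0.52 ± 0.10), Khdc1b (0.70 ± 0.19) and Khdc1a (0.68 ± 0.20) were higher.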
